A study of Mus musculus with 4 samples.

Results

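The genes described here are Ltbp1, which encodes latent TGF-β binding protein 1, the TGF-β ligand genes Tgfb1, Tgfb2 and Tgfb3, and the receptor genes Tgfbr1, Tgfbr2 and Tgfbr3. Their circular RNAs (circRNAs, closed loops made when a splice donor is joined back to an upstream splice acceptor) were followed in primary mouse articular chondrocytes. A circRNA was counted for a gene when both ends of its back-splice junction lay inside the RefSeq span of that gene, with a tolerance of 1 bp. This gave 109 circRNAs in 7 genes, of 40909 circRNAs in all. All 109 lay on a single strand in each gene, and none lay inside a further annotated gene.

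The IL-1β cells received recombinant human interleukin-1β at 10 ng/ml for 24 h, and the control cells are the libraries whose source label names no IL-1β. There were 2 libraries in each group. All cells were at passages 1 to 3 and were grown in serum-containing medium, and the strain, sex and age of the mice are not given in the labels. Nothing in the labels says that replicate libraries came from separate cultures or mice, so a p-value here reflects spread among libraries, which may be technical. Each circRNA was measured as reads across its junction after removal of ribosomal RNA and digestion of linear RNA with RNase R. Linear mRNA was not analysed here. In bulk samples, fewer cells making a circle and fewer circles per cell cannot be told apart.

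TGF-β is secreted in a latent form, in which the mature ligand stays bound to its own propeptide. Latent TGF-β binding proteins are linked to that propeptide by disulfide bonds and anchor the complex to fibrillin-rich fibres of the matrix, from which integrins and proteases release the active ligand. Active TGF-β binds the receptor kinase encoded by Tgfbr2, which phosphorylates the kinase encoded by Tgfbr1, which in turn phosphorylates Smad2 and Smad3. The product of Tgfbr3, betaglycan, is a co-receptor that presents ligand, TGF-β2 above all. In cartilage, TGF-β signalling supports matrix synthesis and restrains hypertrophy of chondrocytes.

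The libraries held 895774 and 980542 junction reads under IL-1β against 1198010 and 1203855 in the controls. Of 12 chondrocyte marker genes, Hapln1 alone had junction reads, 7 in control 2, and Col2a1, Acan and Sox9 were at 0 in every library. Circles of a gene do not measure its mRNA, so the label could not be checked this way. Of 7 fibroblast markers, 6 had junction reads, and their sum was 133 and 99.2 CPM (junction reads scaled to the TMM-adjusted total of each library) under IL-1β, against 201 and 319 CPM in the controls. The part of this difference in the results that follow was not tested. Of 5 osteoblast markers Runx2 alone had junction reads, at 375 and 372 CPM under IL-1β against 273 and 447 CPM in the controls, and the groups overlapped. Of 5 blood cell markers none had a junction read, and of 4 endothelial markers Pecam1 had 8 reads in IL-1β 1.

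Ltbp1 was a prolific source of circles. Its 78 circRNAs ranked 5 among 6930 host genes by number, and its 21945 junction reads ranked 16 among them. The gene gave 4747 and 4426 reads under IL-1β against 6113 and 6659 reads in the controls. After scaling this was 5295 and 4576 CPM under IL-1β against 5224 and 5830 CPM in the controls, so IL-1β 1 lay between the control libraries and the groups overlapped. The mean was 4935 ± 509 CPM under IL-1β against 5527 ± 429 CPM in the controls (SD, n = 2 each). The log2 change was -0.16 ± 0.16 (SE), and the adjusted p was 1.00 in edgeR's quasi-likelihood test over 4879 host genes. At this spread between libraries no difference in Ltbp1 output was detected.

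**Figure D1:**
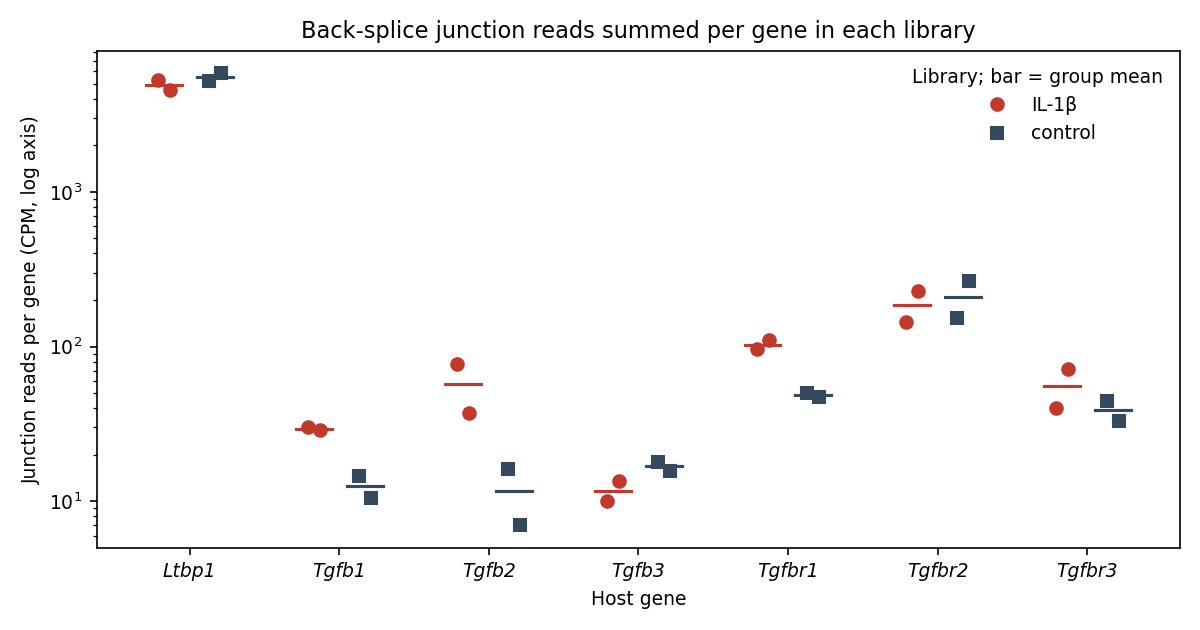
Junction reads summed per gene (CPM, log axis) for the 7 genes, with IL-1β libraries as circles, control libraries as squares and group means as bars. Ltbp1 lies far above the other genes in all libraries, while Tgfb1, Tgfb2 and Tgfbr1 have both IL-1β libraries above both controls.

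RefSeq annotates Ltbp1 on mouse chromosome 17 from 75005480 to 75392512 (GRCm38.p6, the mm10 assembly), a span of 387033 bp on the plus strand. The promoter table used here lists 2 transcription starts for it, at 75005529 and 75178781. Only 1 of the 78 circles, circRNA.14277 (75015128 to 75066202), lay upstream of the second start, with 0 and 18 reads under IL-1β against 8 and 23 in the controls. The other 77 circles and 21896 of the 21945 reads lay downstream of it, and so past both starts. Which start supplied the RNA of these circles was not tested. The nearest circle end lay 256 bp past the second start, at 75179037, and 12 circles began there. These 12 circles held 1.77% and 1.85% of Ltbp1 reads under IL-1β against 1.72% and 3.18% in the controls, so control 2 stood above the other libraries.

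The 300 bases around each start, 250 before it and 50 after it, are shown because they mark where RNA of this gene is annotated to begin. Capitals mark motif matches. Searched on both strands were the AP-1 site TGANTCA, the cAMP response element TGACGTCA, the Smad-binding palindrome GTCTAGAC, the NF-κB-type site GGANTTTCC, the TATA box TATAAA and the GC box GGGCGG, and no window shown held more than 1 match. Both sequences are RefSeq's, read 5′ to 3′ on the plus strand, at chr17:75005279-75005578 for the first start and chr17:75178531-75178830 for the second.
Ltbp1 first start: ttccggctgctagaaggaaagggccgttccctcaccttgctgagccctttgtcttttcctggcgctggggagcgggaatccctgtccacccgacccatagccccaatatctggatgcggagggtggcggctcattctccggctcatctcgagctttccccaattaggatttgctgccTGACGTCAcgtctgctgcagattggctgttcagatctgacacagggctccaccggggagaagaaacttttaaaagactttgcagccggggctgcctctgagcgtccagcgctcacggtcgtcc
Ltbp1 second start: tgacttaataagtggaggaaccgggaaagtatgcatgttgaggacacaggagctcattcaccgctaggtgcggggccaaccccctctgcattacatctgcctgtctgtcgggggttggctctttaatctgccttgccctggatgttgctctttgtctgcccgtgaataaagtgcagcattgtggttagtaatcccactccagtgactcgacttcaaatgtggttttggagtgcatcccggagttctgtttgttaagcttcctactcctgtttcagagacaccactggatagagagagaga

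The first window held 1 match, the cAMP response element 73 bases before the start, a motif found in 1.79% of 32851 promoter windows of the same length. The second window held none of the motifs. Over all windows the AP-1 site was found in 7.81%, the NF-κB-type site in 1.25%, the TATA box in 13.6%, the GC box in 35.7% and the Smad-binding palindrome in 0.213%. A match gives letters only and says nothing of binding.

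Most Ltbp1 reads came from 3 junctions. The leading circle, circRNA.14293 (chromosome 17, 75225156 to 75227241, 2086 bp between its ends), had 2050 and 2214 reads under IL-1β against 2813 and 2451 in the controls. This was 2261 ± 11.2 CPM under IL-1β against 2207 ± 284 CPM in the controls (SD, n = 2 each), with a log2 change of 0.03 ± 0.20 that was -0.21 under scaling by the depth behind the authors' SRPBM. Both IL-1β libraries lay between the controls.

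The second circle by reads, circRNA.14316 (75282328 to 75296343), had 810 and 731 reads under IL-1β against 1061 and 1058 in the controls. That is 820 ± 99.8 CPM under IL-1β against 887 ± 29.8 CPM in the controls (SD, n = 2 each), and the groups overlapped. A near-identical junction, circRNA.14314 (75282324 to 75296339), has both ends moved by 4 nt in the same direction. It had 540 and 0 reads under IL-1β against 0 and 703 in the controls, so it was present in 1 library of each group and at 0 in the other. Whether the pair is 1 junction placed at 2 positions was not tested, and the counts of circles, start positions and end positions given here take them as separate. With the reads of both junctions summed, the log2 change was -0.07. Together the pair held 28.4% and 16.5% of Ltbp1 reads under IL-1β against 17.4% and 26.4% in the controls.

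**Figure D2:**
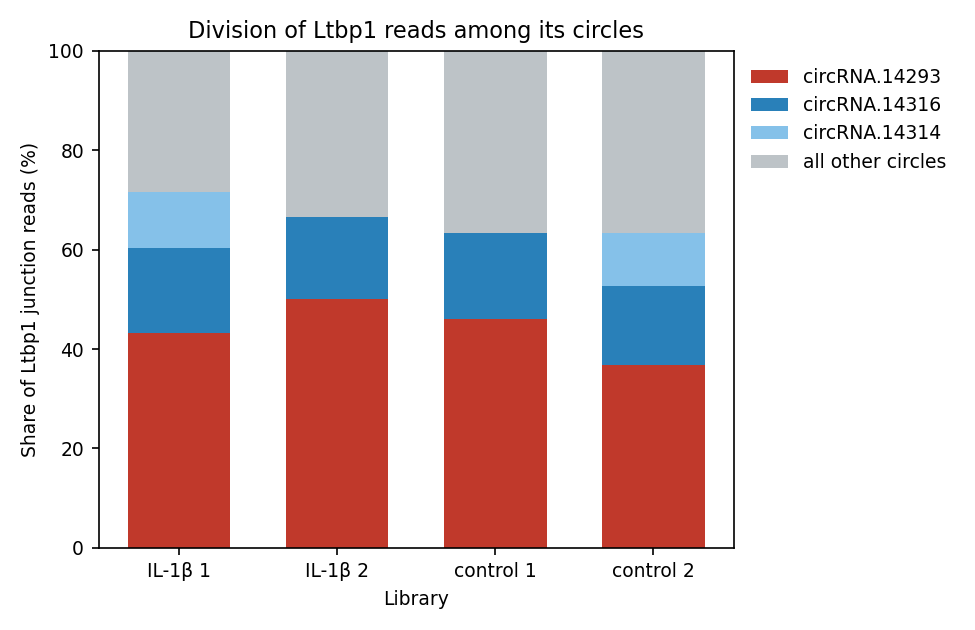
Share of Ltbp1 junction reads (%) held by the leading circle, by each junction of the near-identical pair and by all other circles, in each library. circRNA.14314 appears in IL-1β 1 and control 2, and the 75 other circles hold 28.4% and 33.5% under IL-1β against 36.6% and 36.7% in the controls.

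The leading circle held 43.2% of Ltbp1 reads in IL-1β 1 (95% Wilson interval 41.8% to 44.6%) and 50.02% in IL-1β 2 (48.6% to 51.5%). It held 46.0% in control 1 (44.8% to 47.3%) and 36.8% in control 2 (35.7% to 38.0%). These intervals cover counting error only, since reads copied by PCR are not independent molecules. The share averaged 46.6 ± 4.83% under IL-1β against 41.4 ± 6.51% in the controls (SD, n = 2 each), and an exact two-sided permutation test gave p = 0.667. With 2 libraries against 2 that test cannot go below 0.333. The 75 circles outside the leading circle and the near-identical pair together held 28.4% and 33.5% under IL-1β against 36.6% and 36.7% in the controls, a grouping made after the values were seen.

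Circles beyond those 3 included several that share the start or end position of the main ones. circRNA.14320 (75282328 to 75327322) begins where circRNA.14316 does and had 247 and 271 reads under IL-1β against 515 and 308 in the controls. circRNA.14295 (75225156 to 75252415) begins where the leading circle does and had 195 and 227 reads under IL-1β against 333 and 424 in the controls. Of these, circRNA.14295 had both IL-1β libraries below both controls, at 224 ± 13.0 CPM under IL-1β against 316 ± 43.9 CPM in the controls (SD, n = 2 each), while the libraries of circRNA.14320 overlapped. The log2 change of circRNA.14295 was -0.50 ± 0.27, with an adjusted p of 0.886 in edgeR.

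circRNA.14326 (75290015 to 75296343) had 129 and 133 reads under IL-1β against 157 and 290 in the controls. circRNA.14329 (75290015 to 75327322) had 96 and 61 reads under IL-1β against 96 and 167 in the controls. Both begin at the same position, and in both the groups overlapped. circRNA.14306 (75273867 to 75296343) had 52 and 81 reads under IL-1β against 105 and 160 in the controls, and circRNA.14310 (75273867 to 75327322) had 63 and 66 under IL-1β against 107 and 133 in the controls. This pair shares a further start position and had both IL-1β libraries below both controls after scaling. Their log2 changes were -0.65 ± 0.42 and -0.55 ± 0.38, with an adjusted p of 0.886 each in edgeR. circRNA.14352 (75348744 to 75364509), nearest the 3′ end of these, had both IL-1β libraries above both controls after scaling, with 92 and 111 reads under IL-1β against 80 and 114 in the controls, or 107 ± 8.94 CPM under IL-1β against 80.9 ± 17.6 CPM in the controls (SD, n = 2 each).

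**Figure D3:**
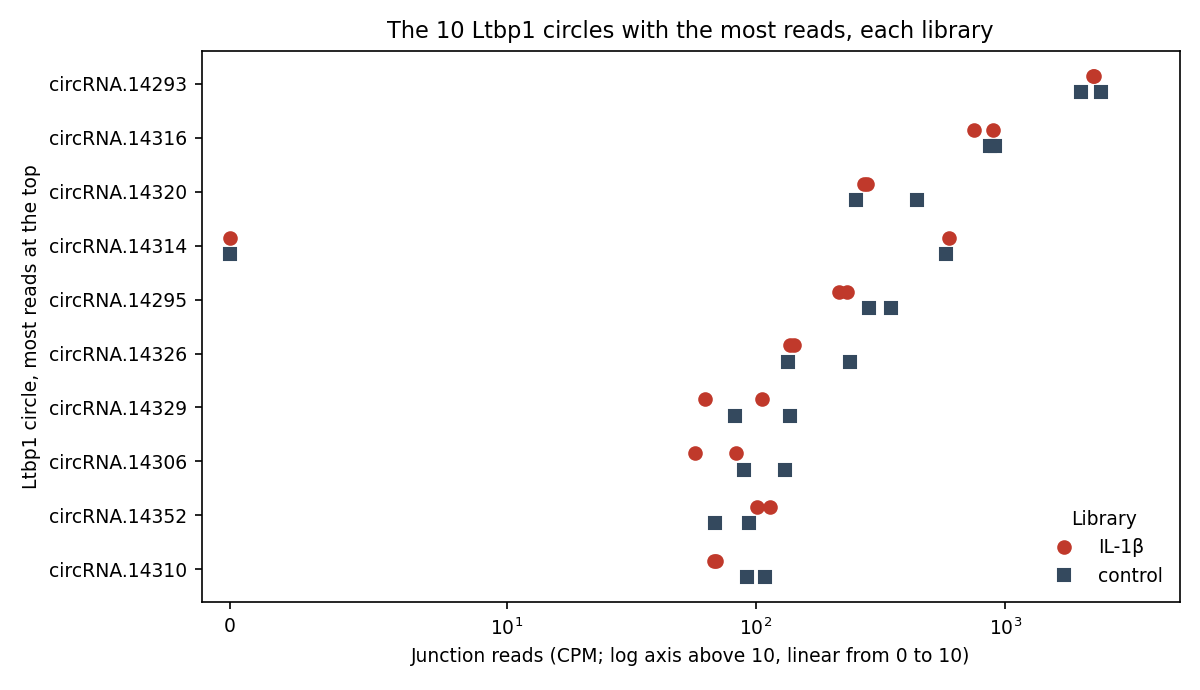
Junction reads (CPM, log axis above 10) of the 10 Ltbp1 circles with the most reads, with IL-1β libraries as circles and control libraries as squares. circRNA.14295, circRNA.14306 and circRNA.14310 have both IL-1β libraries below both controls, circRNA.14352 has them above, and circRNA.14314 is at 0 in 1 library of each group.

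The 78 Ltbp1 circles were built from 25 start positions and 23 end positions, which could form 358 pairs with the start before the end. Start 75225156 served 5 circles and 49.4% of all Ltbp1 reads, and start 75282328 served 9 circles and 25.0%. Among end positions, 75227241 served 44.5% of reads, 75296343 served 22.0% and 75327322 served 10.4%. The share at end 75327322 was 8.55% and 9.67% under IL-1β against 12.5% and 10.2% in the controls, and at end 75252415 it was 4.80% and 5.74% under IL-1β against 6.17% and 7.04% in the controls. At end 75296343 it was 21.1% and 21.4% under IL-1β against 22.0% and 22.9% in the controls. These shares were lower in both IL-1β libraries than in either control. Each had p = 0.333 in an exact two-sided permutation test, the smallest value it can give. At ends 75227241 and 75296339 and at every start compared, the groups overlapped. End 75296339, the near-identical neighbour of 75296343, held 11.4% and 0% under IL-1β against 0% and 10.6% in the controls. With its reads added, the share at 75296343 would overlap between the groups. The 7 circles with under 10 kb between their ends held 46.5% and 53.5% of reads under IL-1β against 49.6% and 42.6% in the controls. The 27 circles of at least 50 kb held 4.61% and 5.51% under IL-1β against 5.02% and 7.16% in the controls. In both span classes the groups overlapped.

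**Figure D4:**
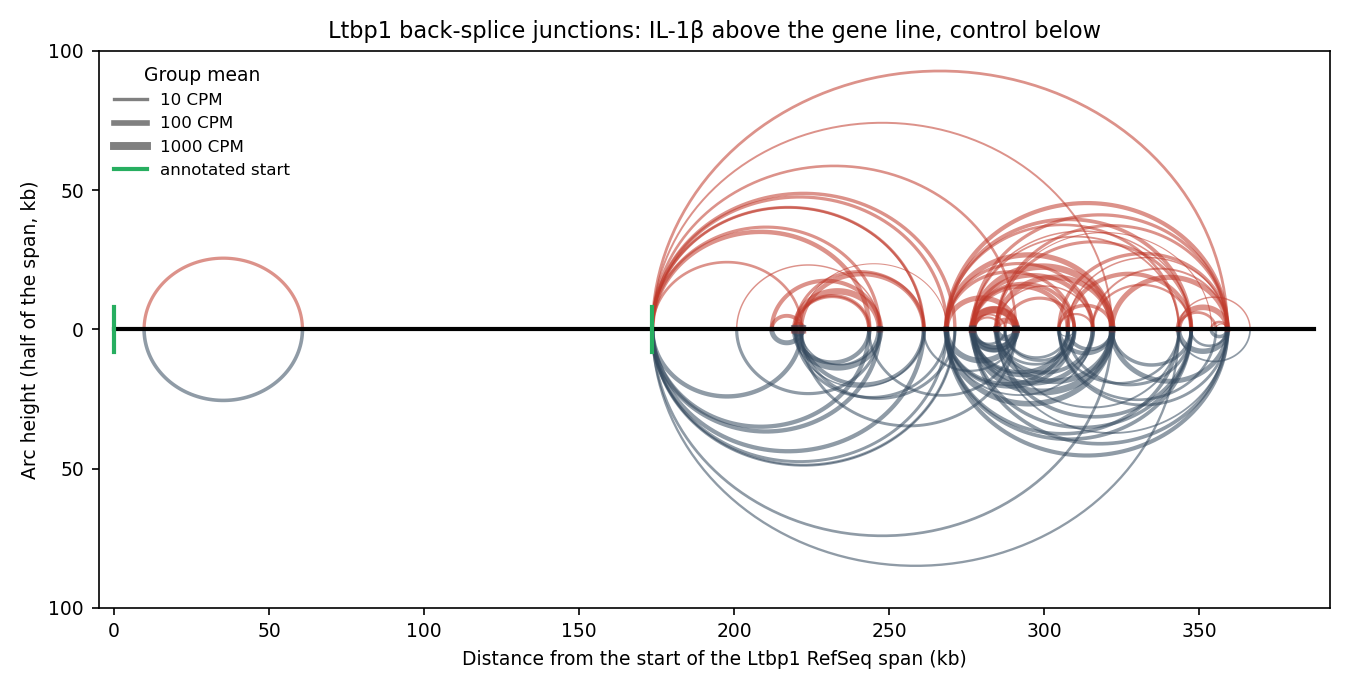
Ltbp1 junctions as arcs over the distance from the start of the gene (kb), with IL-1β above the gene line and control below, line width rising with the group mean CPM and annotated starts in green. Taller arcs are circles with a longer span, the leading circle is too short to stand out, and 77 of 78 circles lie past the second start.

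Ltbp1 circles with at least 1 read numbered 43 and 42 under IL-1β against 47 and 47 in the controls, a difference of -4.50 (p = 0.333, the smallest an exact two-sided permutation test allows here). Thinned to the depth of the smallest library, the expected numbers were 43.0 and 42.0 under IL-1β against 46.8 and 46.9 in the controls. The numbers before thinning were the same with at least 2 reads required, so no Ltbp1 circle had just 1 read in a library. The thinning took 1 read as enough, so its control numbers may be too high. Across libraries, 18 circles were read in all 4 and carried 87.4% of Ltbp1 reads. A further 31 were read in 1 library and carried 1.19%.

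Of the 78 Ltbp1 circles, 43 had at least 20 reads over the libraries and were tested one by one, and 0 reached an adjusted p under 0.05 in edgeR (1 had an unadjusted p under 0.05, and DESeq2 also called 0, giving no adjusted p for that circle). Among all 15333 circRNAs tested, 0.0196% passed and 3.44% had an unadjusted p under 0.05. The groups did not overlap for 17 of the 43, 5 with both IL-1β libraries above both controls and 12 with both below. Over all tested circRNAs these shares were 16.4% above and 17.2% below, against 11.6% and 27.9% of the Ltbp1 circles. Log2 changes were positive for 16 and negative for 27, with a median of -0.42, against -0.05 over all tested circRNAs. The circles of Ltbp1 share their gene and are not replicates of each other.

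Some Ltbp1 circles had reads in both libraries of a group and none in the other group. circRNA.14292 (75217559 to 75252415) had 33 and 8 reads under IL-1β against none in either control, at least 8.85-fold higher under IL-1β, with an unadjusted p of 0.0386 and an adjusted p of 0.886 in edgeR. Its bound rests mostly on IL-1β 1, at 36.3 CPM, against 8.20 CPM in IL-1β 2. Without IL-1β replicate 1 it had too few reads to test, and the unadjusted p was 0.0530 without IL-1β replicate 2 and 0.138 with the replicate block. circRNA.14307 (75273867 to 75313098) was at 0 in each IL-1β library and had 22 and 18 among controls, at least 5.27-fold lower. circRNA.14343 (75312976 to 75327322) was at 0 in each IL-1β library and had 18 and 21 among controls, at least 5.12-fold lower. For circRNA.14307 and circRNA.14343 the unadjusted p was 0.0702 and 0.0742 in edgeR, with an adjusted p of 0.886 each. These bounds, here and for other genes, compare group means and treat a library at 0 as having 3 reads. They do not cover the spread between libraries. Of all tested circRNAs, 3.36% were read in each IL-1β library but no control, and 4.69% the reverse, so 1 and 2 of 43 Ltbp1 circles are near those shares. circRNA.14314, with 540 and 703 reads in its libraries, was likewise at 0 in the other library of each group.

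The host genes whose scaled output moved most like that of Ltbp1 over the 4 libraries, by Euclidean distance between log2 CPM centred on each gene's mean, were Glcci1 (distance 0.0612), Rsu1 (0.0638) and Mpdz (0.0932). The median distance over 2199 host genes with at least 200 reads and reads in every library was 0.678. Each followed the same order, lowest in IL-1β 2 and highest in control 2. Glcci1 gave 585 and 528 CPM under IL-1β against 583 and 676 CPM in the controls. Over 4 libraries such likeness is a description only.

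The ligand genes gave far fewer junction reads, and all 3 passed the minimum of 20 reads. None of the 7 genes passed an adjusted p of 0.05 in edgeR over the 4879 host genes, of which 0% passed, while DESeq2 called 55 hosts and 0 of the 7. An unadjusted p under 0.05 was reached by 2 of the 7, Tgfb2 and Tgfbr1, against 4.55% of all hosts. Both IL-1β libraries lay above both controls for 3 of the 7, Tgfb1, Tgfb2 and Tgfbr1, against 17% of hosts, and below them for Tgfb3 alone, against 18.9% of hosts.

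Tgfb2, a ligand that needs betaglycan for strong binding to the signalling receptors, had the largest log2 change among the 7. It gave 69 and 36 reads under IL-1β against 19 and 8 in the controls, or 57.1 ± 28.1 CPM under IL-1β against 11.6 ± 6.53 CPM in the controls (SD, n = 2 each). Both IL-1β libraries stood above both controls, and the IL-1β libraries themselves differed widely. The log2 change was 2.28 ± 0.88, with an unadjusted p of 0.0308 and an adjusted p of 0.882 in edgeR. The unadjusted p in edgeR was 0.0672 under scaling by the SRPBM depth and 0.0293 with the replicate block. The log2 change fell to 1.67 without IL-1β replicate 1 and to 1.81 without control replicate 2.

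Most of the Tgfb2 difference lay in 1 junction. circRNA.18928 (chromosome 1, 186628883 to 186649898, minus strand) had 49 and 19 reads under IL-1β against none in either control, at least 14.6-fold higher under IL-1β. That bound rests mostly on IL-1β 1, at 53.9 CPM, against 19.5 CPM in IL-1β 2. Without IL-1β replicate 1 this circle had too few reads to test. Its unadjusted p was 0.00809 and its adjusted p 0.886 in edgeR, while DESeq2 gave an adjusted p of 0.0117, the single call it made among the circles of these 7 genes. circRNA.18929 (186630610 to 186649898), which shares the upstream end, had 20 and 0 reads under IL-1β against 16 and 0 in the controls. circRNA.18927 (186628883 to 186632810), which shares the downstream end, had 0 and 17 under IL-1β against 0 and 8 in the controls. Each of these neighbours was read in 1 library of each group. The remaining circle, circRNA.18930 (186630610 to 186704576), had 3 reads, all in control 1.

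A further junction, circRNA.18926 (chromosome 1, 186610241 to 186632810, minus strand), reaches 12546 bp past the annotated 3′ end of Tgfb2 and so was not counted for the gene. It shares its upstream end with circRNA.18927. It had 37 and 14 reads under IL-1β against none in either control, at least 10.95-fold higher under IL-1β. Its unadjusted p was 0.0202 and its adjusted p 0.886 in edgeR. That bound rests mostly on IL-1β 1, at 40.7 CPM, against 14.3 CPM in IL-1β 2. This junction was singled out after its values were seen.

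The window around the Tgfb2 start listed in the promoter table is shown because Tgfb2 had the largest log2 change among the 7 genes. It is from RefSeq at chr1:186705940-186706239 (GRCm38.p6), read 5′ to 3′ on the minus strand, with the motif match in capitals. The RefSeq span of the gene reaches further upstream than this start, to 186709697. All 4 Tgfb2 circles lay downstream of this start.
Tgfb2 start: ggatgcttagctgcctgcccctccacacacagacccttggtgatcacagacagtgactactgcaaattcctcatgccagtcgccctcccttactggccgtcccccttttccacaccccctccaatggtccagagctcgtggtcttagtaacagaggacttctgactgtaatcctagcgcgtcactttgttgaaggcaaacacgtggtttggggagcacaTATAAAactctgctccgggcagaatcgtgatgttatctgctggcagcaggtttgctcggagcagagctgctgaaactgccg

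It held a TATA box 31 bases before the start and none of the other motifs searched. The Tgfb1 window held 6 GC boxes and the first Tgfbr1 window 2, and the Tgfbr2 window held 1 NF-κB-type site, 30 bases into the transcript. Windows were found for 5 of the 7 genes, Ltbp1, Tgfb1, Tgfb2, Tgfbr1 and Tgfbr2.

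Tgfb1, the most widely expressed TGF-β ligand gene in adult tissue, gave 27 and 28 reads under IL-1β against 17 and 12 in the controls. The means were 29.5 ± 0.829 CPM under IL-1β against 12.5 ± 2.84 CPM in the controls (SD, n = 2 each), and the groups did not overlap. The log2 change of 1.23 ± 1.099 did not pass, with an adjusted p of 1.00 in edgeR. Its main circle, circRNA.34894 (chromosome 7, 25694223 to 25697272, plus strand), had 27 and 13 reads under IL-1β against 17 and 12 in the controls, and the groups overlapped. The other circle, circRNA.34893 (25692377 to 25697272), uses the same end and had 15 reads, all in IL-1β 2. The separation of the groups in the gene sum thus rested on a circle read in 1 library.

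Tgfb3 gave 9 and 13 reads under IL-1β against 21 and 18 in the controls, or 11.7 ± 2.40 CPM under IL-1β against 16.9 ± 1.55 CPM in the controls (SD, n = 2 each). Both IL-1β libraries were below both controls. The log2 change was -0.52 ± 1.48, with an adjusted p of 1.00 in edgeR. Its circRNA.6636 (chromosome 12, 86057794 to 86069910, minus strand) had 9 and 5 reads under IL-1β against 21 and 18 in the controls. Its circRNA.6637 (86057794 to 86078413) had 8 reads, all in IL-1β 2.

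Among the receptor genes, Tgfbr1, which encodes the kinase that phosphorylates Smad2 and Smad3, was higher in both IL-1β libraries. It gave 86 and 106 reads under IL-1β against 59 and 54 in the controls, or 103 ± 9.65 CPM under IL-1β against 48.8 ± 2.22 CPM in the controls (SD, n = 2 each), a ratio of 2.10. The gap between the groups was wider than the gap between the libraries of either group. The log2 change was 1.07 ± 0.46, with an unadjusted p of 0.0471 and an adjusted p of 0.882 in edgeR. The unadjusted p was 0.0687 to 0.166 with each library left out in turn, 0.0699 with the replicate block, 0.0617 with no filter and 0.1504 under scaling by the SRPBM depth. Nearly all of it was circRNA.27499 (chromosome 4, 47383749 to 47396585, plus strand), which held 95.7% of Tgfbr1 reads, with 84 and 106 reads under IL-1β against 57 and 45 in the controls. Its log2 change was 1.23 ± 0.43, with an unadjusted p of 0.0275 and an adjusted p of 0.886 in edgeR. That unadjusted p was 0.0390 to 0.1201 with each library left out in turn and 0.104 under scaling by the SRPBM depth. The other 3 Tgfbr1 circles start at the same position and had 9, 2 and 2 reads in 1 library each.

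RefSeq lists 2 starts for Tgfbr1, at 47353222 and 47386216, and all 4 circles begin upstream of the second one and end past it. RNA begun at the second start does not hold the shared start position of these circles. The window around that start is shown because it lies between the genomic ends of every Tgfbr1 circle. Whether the circles hold this sequence was not tested. The window is from RefSeq at chr4:47385966-47386265 (GRCm38.p6), read 5′ to 3′ on the plus strand. It holds none of the motifs searched.
Tgfbr1 second start: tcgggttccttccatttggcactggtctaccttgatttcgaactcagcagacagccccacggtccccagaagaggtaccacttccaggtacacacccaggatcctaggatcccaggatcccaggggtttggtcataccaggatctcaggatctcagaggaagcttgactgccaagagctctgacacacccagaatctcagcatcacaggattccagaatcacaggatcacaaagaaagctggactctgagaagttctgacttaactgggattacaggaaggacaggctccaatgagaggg

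Tgfbr2, which encodes the receptor kinase that binds TGF-β first, gave 129 and 221 reads under IL-1β against 180 and 305 in the controls. The means were 186 ± 59.8 CPM under IL-1β against 210 ± 80.1 CPM in the controls (SD, n = 2 each), the groups overlapped, and the log2 change was -0.18 ± 0.38. The sign changed to 0.12 without IL-1β replicate 1 and to 0.28 without control replicate 2, so no direction can be given. The main circle, circRNA.38654 (chromosome 9, 116129816 to 116131713, minus strand), had 89 and 119 reads under IL-1β against 93 and 136 in the controls. circRNA.38649 (116105034 to 116131713) had 17 and 59 reads under IL-1β against 15 and 86 in the controls. It was higher in replicate 2 of each group.

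Smaller Tgfbr2 circles were uneven between libraries. circRNA.38651 (116109504 to 116110303), the shortest circle of the 7 genes at 800 bp, had 12 and 19 reads under IL-1β against 44 and 0 in the controls. circRNA.38648 (116105034 to 116110303) was at 0 in each IL-1β library and had 11 and 31 among controls, at least 5.46-fold lower. Its unadjusted p was 0.0677 and its adjusted p 0.886 in edgeR. That bound rests mostly on control 2, at 25.4 CPM, against 9.42 CPM in control 1. circRNA.38652 (116109504 to 116130006) had 0 and 7 reads under IL-1β against 14 and 24 in the controls, while circRNA.38655 (116129816 to 116158345) had 11 and 13 under IL-1β against 3 and 0 in the controls. Both IL-1β libraries were below both controls for circRNA.38652 and above them for circRNA.38655, and neither passed. The remaining 3 Tgfbr2 circles were read in 1 library each.

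Tgfbr3, the betaglycan gene, gave 36 and 69 reads under IL-1β against 52 and 38 in the controls, or 55.7 ± 22.0 CPM under IL-1β against 38.9 ± 7.90 CPM in the controls (SD, n = 2 each). The groups overlapped, and the log2 change was 0.52 ± 0.63 with an adjusted p of 1.00 in edgeR. Of its 10 circles, 1 was read in all libraries, circRNA.28442 (chromosome 5, 107130461 to 107142546, minus strand), with 16 and 13 reads under IL-1β against 14 and 13 in the controls, both IL-1β libraries being the higher after scaling. circRNA.28441 (107130461 to 107137077) had 15 and 7 reads under IL-1β against 0 and 16 in the controls, and circRNA.28443 (107137530 to 107149958) had 0 and 7 under IL-1β against 26 and 0 in the controls. Circles read in 1 library held 31.3% of Tgfbr3 reads, against 1.19% in Ltbp1.

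Over all 7 genes, 59 of 109 circles had enough reads to test. None passed an adjusted p of 0.05 in edgeR, 3 had an unadjusted p under 0.05 (circRNA.14292, circRNA.18928 and circRNA.27499), and DESeq2 called 1. An unadjusted p under 0.05 was reached by 3.44% of all tested circRNAs. Both IL-1β libraries lay above both controls for 9 of the 59, against 16.4% of all tested circRNAs, and below them for 15, against 17.2%. There were 2 read in each IL-1β library but no control, against 3.36% of all, and 3 the reverse, against 4.69%. Simulated 4-fold changes in counts of this depth were recovered for 8% of circRNAs, 27.5% of those with at least 200 reads, and for 36% of host genes, 78.2% of those with at least 200 reads. Of the 29 circRNA calls then made, 13 were false, as were 5 of the 77 host calls. Simulated 2-fold changes were recovered for 1.5% of circRNAs, 7.14% of those with at least 200 reads, and for 5% of host genes, 10.7% of those with at least 200 reads. Of the 24 circRNA calls then made 21 were false, as were 3 of the 13 host calls. Simulated counts were given the spread between libraries typical of their depth. Circles more uneven between libraries than that were not modelled.

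Other genes of the pathway came from a list of 54, of which 38 had junction reads and 30 had enough to test. None passed an adjusted p of 0.05 in edgeR, 1 had an unadjusted p under 0.05 and DESeq2 called 0. Log2 changes were positive for 16 and negative for 14, with a median of 0.03, against -0.03 over all hosts tested. Both IL-1β libraries lay above both controls for 5 of the 30, against 17% of all hosts, and below them for 6, against 18.9%. With 4.55% of all hosts at an unadjusted p under 0.05, the counts of the list were near those of all hosts.

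In the latent complex and its activation, Ltbp2, Ltbp4 and Fbn1 had no junction read, and Ltbp3 had 0 and 6 reads under IL-1β against 18 and 2 in the controls. Itgb5, an integrin β subunit that pairs with αv, had the lowest p of the list. It gave 185 and 211 reads under IL-1β against 449 and 369 in the controls, or 212 ± 8.32 CPM under IL-1β against 353 ± 42.9 CPM in the controls (SD, n = 2 each). Its log2 change was -0.74 ± 0.26, with an unadjusted p of 0.0220 and an adjusted p of 0.882 in edgeR. Furin, the protease that cleaves the propeptide from the ligand, gave 463 ± 0.142 CPM under IL-1β against 474 ± 97.7 CPM in the controls (SD, n = 2 each). Of the other ligand-binding proteins listed, Cd109, a co-receptor that dampens signalling, had 35 and 8 reads under IL-1β against 0 and 17 in the controls.

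Of the Smad genes, Smad4, the partner shared by receptor-activated Smads, gave 2595 ± 9.02 CPM under IL-1β against 2098 ± 365 CPM in the controls (SD, n = 2 each), with both IL-1β libraries above both controls. Smad2 gave 387 ± 16.2 CPM under IL-1β against 314 ± 113 CPM in the controls. Smad3 gave 34.0 ± 8.66 CPM under IL-1β against 83.5 ± 57.7 CPM in the controls, where control 2 alone reached 124 CPM. Smad7, which encodes an inhibitory Smad, had no junction read.

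Of the regulators, Ski, a co-repressor of Smads, gave 161 ± 8.67 CPM under IL-1β against 258 ± 91.0 CPM in the controls. Trim33, a ubiquitin ligase that acts on Smad4, gave 399 ± 71.1 CPM under IL-1β against 281 ± 26.98 CPM in the controls, and Smurf2, a ubiquitin ligase for receptors and Smads, 501 ± 123 CPM under IL-1β against 480 ± 112 CPM in the controls. In the branch outside Smads, the kinase gene Map3k7 gave 44.7 ± 7.72 CPM under IL-1β against 53.9 ± 14.4 CPM in the controls. Its adaptor gene Tab2 gave 11.1 ± 4.71 CPM under IL-1β against 7.69 ± 10.9 CPM in the controls. Traf6, tied with Tab2 at 39 reads in all, had 0 and 2 reads under IL-1β against 25 and 12 in the controls. Both IL-1β libraries of Traf6 lay below both controls. Of target genes, Ldlrad4 gave 259 ± 1.77 CPM under IL-1β against 357 ± 127 CPM in the controls (SD, n = 2 each throughout). None of these passed an adjusted p of 0.05.

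**Figure D5:**
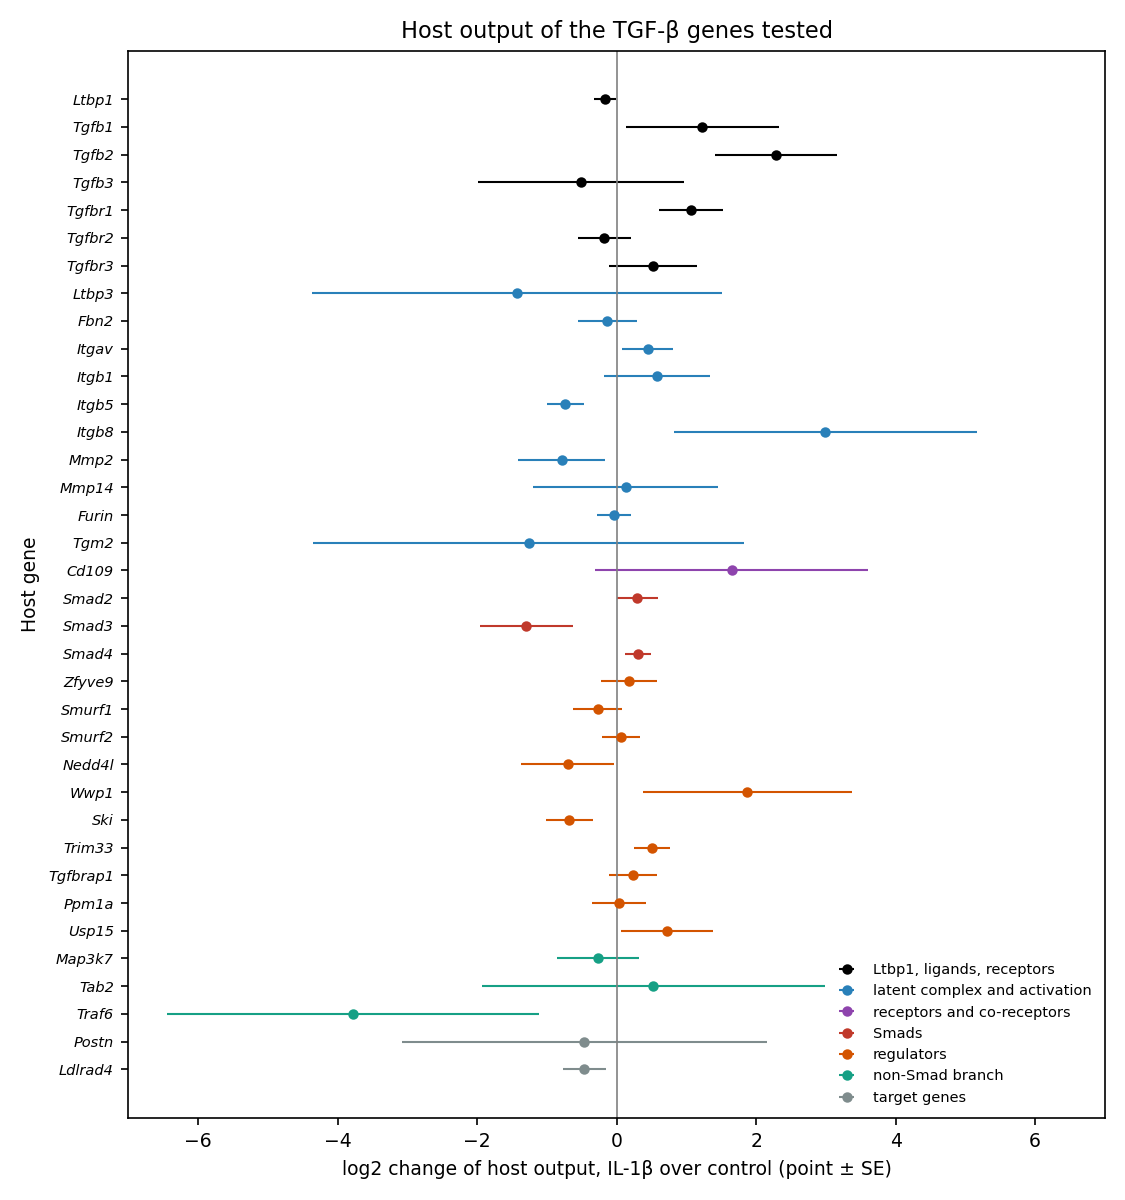
Log2 change of host output, IL-1β over control, with its standard error, for the 7 genes and the tested genes of the pathway list that are reported here, coloured by role. Ltbp1 lies at -0.16 with a short bar, Tgfb2 at 2.28 and Tgfbr1 at 1.07, and bars are wide for genes with few reads such as Ltbp3 and Traf6.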

How the data were processed

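CircRNAs were profiled in 4 libraries of primary mouse articular chondrocytes. Per the labels' protocols, ribosomal RNA was depleted, linear RNA was digested with RNase R and the libraries keep strand. The submitters' processing notes name mm10 and Bowtie2, while circRNA caller, filters and handling of duplicates are not stated there. Per the file headers, the authors deposited back-splice junction counts and SRPBM, a signal scaled for depth. The control libraries carry the same treatment text as the IL-1β libraries, so groups follow the source label. That the controls received no IL-1β rests on that label alone. Some circRNA numbers are not analysed here.

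Junctions were placed in RefSeq genes (GRCm38.p6), taking a lone enclosing coding gene first and a lone noncoding one otherwise, and reads were summed per host. Exons and strand of genes were not used. Counts with at least 20 reads over the libraries went into edgeR 4.0.16 (R 4.3.3) over all circRNAs and over all hosts (quasi-likelihood, TMM, no block, Benjamini-Hochberg at 0.05), after tests on simulated data in which 200 features changed. Standard errors come from the log2 change and its F statistic. CPM is reads scaled to the TMM-adjusted library total, and a count of 0 allows up to 3 reads, 2.46 to 3.30 CPM. DESeq2 1.42.0, other scalings, filters and junction sums, each library left out and a replicate block were alternatives. Python 3.11.15 with scipy 1.17.1 gave the other values. The genes, lists and tests were chosen with earlier results of these data known. Named were the 10 Ltbp1 circles and the 3 circles of each other gene with the most reads, circles with an unadjusted p under 0.05 or present in 1 group alone, and, of the pathway list, the 2 genes with the most reads in each role and the 4 with the lowest p. A gene of the list is not reported here. Others named were chosen after their values were seen. Sequences are from RefSeq promoter windows.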

Additional observations from a re-analysis of the deposited data

How the results depend on the processing

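The output of Ltbp1, Tgfb1, Tgfb2, Tgfb3, Tgfbr1 and Tgfbr3 kept its direction under every alternative run, and none of the 7 genes passed an adjusted p of 0.05 in any. Log2 changes ranged from -0.36 to -0.06 for Ltbp1 over 14 alternatives and, over 12 each, from 0.99 to 1.52 for Tgfb1, 1.67 to 3.05 for Tgfb2, -0.74 to -0.32 for Tgfb3, 0.86 to 1.16 for Tgfbr1 and 0.05 to 0.87 for Tgfbr3. Leaving out each library in turn, Tgfbr2 ranged from -0.55 to 0.28. Both Ltbp1 alternatives chosen after seeing the data, without the leading circle and without the near-identical pair, gave -0.30 and -0.18. Depth limits single circles most, with 59 of 109 reaching the minimum.

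Of 15333 circRNAs 3 passed in edgeR, against 106 in DESeq2, 0 with at least 50 reads, 0 with junctions within 5 nt summed, 61 with no filter and 0 to 4 with a library left out. Of hosts 0 passed, against 55 in DESeq2, 12 with no filter and 0 to 2 with a library left out. Labels state no pairing, and deviations of same-numbered libraries correlated at -0.0337 over 3100 circRNAs and 0.0323 over 2209 hosts. With the replicate block 61 circRNAs and 20 hosts passed, none of them one of the 7 genes or their circles. Of the circles of these genes DESeq2 called 1, circRNA.18928, which had too few reads to test without IL-1β replicate 1.

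Log2 changes of some circles reversed, and the cause was not tested. Scaling by the depth behind SRPBM gave -0.21 for circRNA.14293 and moved the pathway median to -0.20, where the median of all hosts was -0.24. Summing junctions gave -0.0732 for circRNA.14314. The replicate block gave 0.14 for circRNA.38649 and 1.80 for circRNA.38651. With each library left out in turn, values ranged from -0.0903 to 0.14 for circRNA.14293, -0.68 to 0.0948 for circRNA.14320, -11.36 to 11.24 for circRNA.14314, -0.80 to 0.0495 for circRNA.14326, -0.83 to 0.0311 for circRNA.14329, -0.32 to 6.51 for circRNA.18929, -0.0469 to 0.47 for circRNA.38654, -1.19 to 1.62 for circRNA.38649, -1.20 to 7.08 for circRNA.38651, -0.17 to 6.60 for circRNA.28441 and -0.0912 to 0.22 for the pathway median. With at least 5 reads, distinct Ltbp1 circles differed by -7.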
